A study of Mus musculus with 6 samples.

Results

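Skeletal muscle transcripts were followed through 6 mammary tumour arrays. The set comprised 37 genes of the sarcomere, of calcium handling and of the energy metabolism of striated muscle fibres. Every probe set that the platform annotation gives to exactly 1 of these genes was taken, whatever its value. This gave 44 probe sets of 34 genes, out of 12393 genes with such a probe set, while Mybpc1, Mybpc2 and Neb had none. Of the 34 genes, 13 belong to fast fibres, 6 to slow fibres and 15 to both. Where a gene had several probe sets, the one with the highest mean over the 6 arrays stands for it.

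The arrays held RNA of snap-frozen mammary tumours from adult female F1 mice of 2 crosses. In 3 samples the cross was (AKR/J x PyMT)F1, written AKR here, and in 3 it was (DBA/2J x PyMT)F1, written DBA. All animals descend from a parent with PyMT, the polyomavirus middle T antigen transgene, which induces mammary tumours, so no group lacks it. The transgene's promoter, the strain of the PyMT parent and the animals' ages in weeks are not given in the sources used here. The 2 crosses are the comparison that the design offers. The sample titles carry different numbers, but no label says that the samples came from separate animals. A p-value here thus speaks to sample-to-sample spread, which may be technical. Each sample was read on 1 array, array medians lay between 7.52 and 7.57 on the log2 scale, and the small number of arrays limits precision.

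Skeletal muscle fibres contract when calcium released from the sarcoplasmic reticulum binds troponin on the thin filament and lets myosin of the thick filament pull on actin. Fast and slow fibres build the same machine from different genes: each has its own myosin heavy and light chains and its own troponin C, I and T. Fast fibres lean on glycogen and phosphocreatine, slow fibres on mitochondria and myoglobin. The mammary epithelium has no sarcomeres. The gland lies in a fat pad under the skin, close to the cutaneous muscle and the muscles of the body wall. In bulk RNA, fewer cells of a type and less RNA per cell cannot be told apart.

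The promoters of the 4 members that varied most and had an entry in the RefSeq promoter table (GRCm38.p6) are shown because these genes varied together over the arrays. They give the 250 bases before the gene start, 5′ to 3′ on the gene's strand. Capitals mark matches on either strand to the E-box CANNTG bound by myogenic factors, the MCAT element (CATTCC, bound by TEAD factors), the TATA sequence (TATAAA), the MEF2 site and the CArG box bound by serum response factor.
Tnnc2 (chr2:164779735-164779984, minus strand): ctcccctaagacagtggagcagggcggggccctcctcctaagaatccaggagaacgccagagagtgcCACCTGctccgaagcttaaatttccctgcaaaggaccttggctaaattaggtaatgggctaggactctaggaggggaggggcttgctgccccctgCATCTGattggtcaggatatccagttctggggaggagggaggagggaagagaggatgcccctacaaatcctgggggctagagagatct
Acta1 (chr8:123894776-123895025, minus strand): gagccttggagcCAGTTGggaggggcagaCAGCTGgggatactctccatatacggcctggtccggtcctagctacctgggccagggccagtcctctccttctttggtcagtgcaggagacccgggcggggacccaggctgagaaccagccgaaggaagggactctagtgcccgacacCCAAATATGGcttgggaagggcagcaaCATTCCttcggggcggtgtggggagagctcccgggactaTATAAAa
Myh4 (chr11:67237562-67237811, plus strand): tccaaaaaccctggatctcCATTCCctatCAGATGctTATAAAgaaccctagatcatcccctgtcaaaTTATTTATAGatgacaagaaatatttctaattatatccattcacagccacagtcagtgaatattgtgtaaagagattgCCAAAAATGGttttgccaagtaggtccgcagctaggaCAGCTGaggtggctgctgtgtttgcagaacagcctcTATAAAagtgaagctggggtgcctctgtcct
Myh1 (chr11:67199852-67200101, plus strand): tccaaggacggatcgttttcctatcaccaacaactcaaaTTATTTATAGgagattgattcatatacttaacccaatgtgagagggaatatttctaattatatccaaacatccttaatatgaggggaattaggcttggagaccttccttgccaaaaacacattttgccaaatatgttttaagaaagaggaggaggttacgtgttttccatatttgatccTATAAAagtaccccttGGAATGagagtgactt
Myh4 and Myh1, neighbours in the fast myosin cluster of chromosome 11, both held a MEF2 match, TTATTTATAG, which overlaps a TATAAA match on the other strand. Acta1 held a CArG box, CCAAATATGG, and Tnnc2 held E-boxes and none of the other motifs in this window. The table had promoters of 27 of the 34 genes, 33 promoters in all. An E-box CANNTG lay in 87.9% of these and in 66.2% of all 32536 promoters, and its form CAGCTG in 51.5% against 13.1%. MCAT lay in 27.3% against 12.6%, TATAAA in 18.2% against 12.3%, MEF2 in 15.2% against 2.89% and CArG in 9.09% against 1.48%. A match describes the letters and no binding was measured.

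The muscle transcripts varied far more from sample to sample than between the crosses. DBA replicate 1 was the highest of the 6 arrays for 32 of 34 genes, all but Myl3 and Mylk2, whereas it was highest for 17.1% of all genes. DBA replicates 2 and 3 lay at the other end, and all 3 AKR arrays lay above both of them for 31 of 34 genes, all but Mb, Myh7 and Tnnc1 (31.3% of all genes). Both features together held for 29 members and for 1.72% of all genes. The AKR tumours therefore fell between the highest and the lowest DBA tumours. A member's values spanned a median of 3.65 log2 units over the 6 arrays, against 0.70 for all genes.

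**Figure D1:**
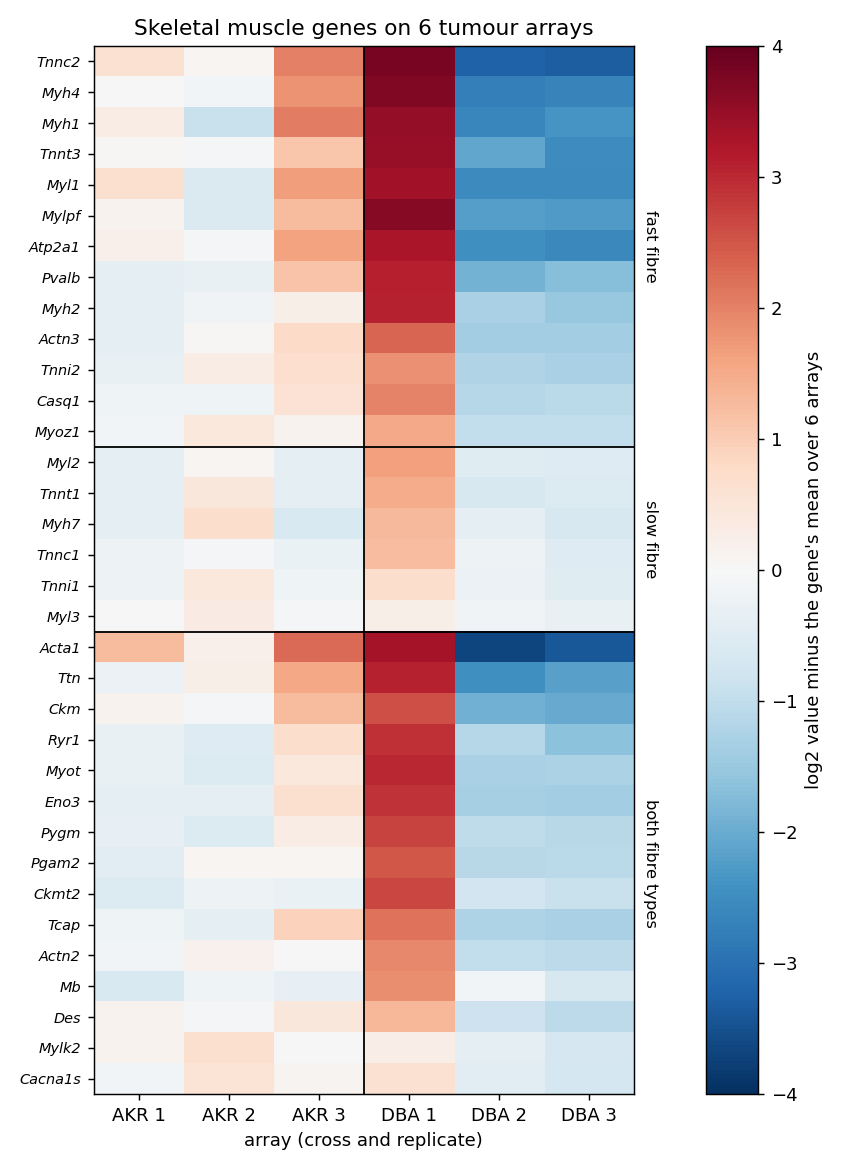
Deposited log2 value of each of the 34 muscle genes on each array, minus the gene's mean over the 6 arrays (red above, blue below), with fast fibre genes on top, slow fibre genes in the middle and genes of both fibre types below. DBA replicate 1 is red in nearly every row, DBA replicates 2 and 3 are blue, and AKR replicate 3 is the reddest AKR array among the fast fibre genes.

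Averaged over the 34 genes, the log2 value was 7.61, 7.67 and 8.33 on AKR replicates 1, 2 and 3, against 10.03, 6.34 and 6.24 on DBA replicates 1, 2 and 3. Over all genes no array mean left the range from 7.95 to 8.002. The median within-cross SD of the members was 1.53 log2 units, against 0.21 for all genes, and it was 0.41 without DBA replicate 1. The spread thus rested largely on that array. A difference between single arrays has no replicate check.

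Fast fibre genes showed the pattern most fully. At the brightest probe set, DBA replicate 1 was highest in all 13 of them and every AKR array lay above DBA replicates 2 and 3. A dimmer probe set each of Myh1, Myoz1 and Tnni2 was highest on AKR replicate 2 instead. These read 5.78, 5.30 and 6.73 there, against 5.21, 5.06 and 5.86 on DBA replicate 1. The other dimmer probe sets of Myh1 and Tnni2 had DBA replicate 1 highest. AKR replicate 3 was the highest AKR array in 12 of the 13, with Myoz1 as the exception. The array mean over these genes was 8.30, 8.12 and 9.43 in AKR, against 11.25, 6.30 and 6.26 in DBA tumours. The median log2 difference, AKR minus DBA, was 0.56, against 0.05 for all genes, and 12 of 13 genes were higher in the AKR mean. The sign turned with single arrays: the median was -0.10 when DBA replicate 2 was left out, -0.11 when DBA replicate 3 was, and 2.52 when DBA replicate 1 was.

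The fast troponins hold the calcium switch of the thin filament. Tnnc2, the calcium-binding subunit, read 9.59, 9.08 and 11.005 in AKR, against 12.79, 5.77 and 5.69 in DBA tumours. DBA replicate 1 thus lay 137-fold above DBA replicate 3, and the AKR values fell inside the gap. Tnnt3, which ties the complex to tropomyosin, read 7.71, 7.56 and 8.77 in AKR, against 11.15, 5.58 and 5.13 in DBA tumours. Tnni2, the inhibitory subunit, read 9.16, 9.74 and 10.13 in AKR, against 11.28, 8.25 and 8.16 in DBA tumours. The crosses overlapped for each of these 3 genes, since DBA arrays were both highest and lowest.

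The fast myosin genes encode the motor and its light chains. Myh4, the heavy chain of the fastest fibres, read 7.37, 7.24 and 9.15 in AKR, against 11.07, 4.61 and 4.70 in DBA tumours. Myh1, another fast heavy chain, read 7.72, 6.55 and 9.47 in AKR, against 10.94, 4.83 and 5.07 in DBA tumours. Myh2, the heavy chain of fast oxidative fibres, read 6.70, 6.94 and 7.33 in AKR, against 10.16, 5.79 and 5.57 in DBA tumours. DBA replicate 1 exceeded AKR replicate 3 by 2.83 log2 units in Myh2, and by 1.91 in Myh4 and 1.47 in Myh1. The heavy chain genes are similar in sequence, so their probe sets may share signal. The light chain genes Myl1 and Mylpf went the same way, at 9.61, 8.40 and 10.66 for Myl1 in AKR, against 12.35, 6.42 and 6.42 in DBA tumours. Mylpf, the fast regulatory light chain, read 8.28, 7.56 and 9.41 in AKR, against 11.78, 5.92 and 5.87 in DBA tumours.

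Calcium handling genes of fast fibres followed. Atp2a1, the pump that returns calcium to the sarcoplasmic reticulum, read 9.21, 8.95 and 10.61 in AKR, against 12.29, 6.57 and 6.45 in DBA tumours. Pvalb, the calcium buffer parvalbumin, read 8.18, 8.23 and 9.67 in AKR, against 11.64, 6.65 and 6.82 in DBA tumours. Both were lowest on DBA replicates 2 and 3 and highest on DBA replicate 1. The other 3 fast genes spanned less, by 3.11 log2 units for Casq1, the calcium store protein, 3.71 for Actn3, the Z disc actinin of fast fibres, and 2.501 for Myoz1, a Z disc protein that binds calcineurin.

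Slow fibre genes differed from this on the AKR arrays. DBA replicate 1 was highest for 5 of 6, but their array mean was 6.23, 6.82 and 6.18 in AKR, against 7.59, 6.15 and 5.99 in DBA tumours. AKR replicate 3, the highest AKR array for fast genes, was the highest AKR array for 0 of the 6 slow genes, and AKR replicate 2 was highest for all 6. Over all genes AKR replicate 3 was the highest AKR array in 30.8% and AKR replicate 2 in 38.9%. AKR replicate 2 was also the highest AKR array for 8 of 9 heart-restricted genes and 5 of 6 skin genes. Other lists differed, with 6 of 12 adipocyte genes, 1 of 4 nerve sheath genes and 0 of 12 luminal epithelial markers. The median log2 difference, AKR minus DBA, was -0.20, with 2 of 6 genes higher in AKR. It moved to 0.34 without DBA replicate 1 and to 0.0002 without AKR replicate 3.

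Myh7, the slow and cardiac myosin heavy chain, read 5.39, 6.46 and 5.16 in AKR, against 7.06, 5.41 and 5.11 in DBA tumours. Myl2, the slow and ventricular regulatory light chain, read 5.45, 5.89 and 5.46 in AKR, against 7.46, 5.33 and 5.28 in DBA tumours. AKR replicates 1 and 3 thus read much as DBA replicates 2 and 3 did in both genes, and AKR replicate 2 read above them. Tnnc1, the slow and cardiac troponin C, read 5.81, 5.99 and 5.76 in AKR, against 7.25, 5.81 and 5.51 in DBA tumours. Tnnt1, the slow troponin T, read 5.92, 6.74 and 5.92 in AKR, against 7.77, 5.65 and 5.75 in DBA tumours. Tnni1, the slow troponin I, read 6.98, 7.60 and 7.01 in AKR, against 7.87, 6.94 and 6.71 in DBA tumours. For all of these genes DBA replicate 1 was the highest array.

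Myl3, the slow and ventricular essential light chain, depended on the probe set. The brightest of 3 read 7.87, 8.22 and 7.80 in AKR, against 8.13, 7.74 and 7.59 in DBA tumours. The dimmest read 5.57, 6.01 and 5.42 in AKR, against 7.12, 5.53 and 5.34 in DBA tumours, so there DBA replicate 1 stood highest. The remaining one read 7.12, 7.89 and 7.02 in AKR, against 7.32, 6.92 and 6.89 in DBA tumours. The log2 differences, AKR minus DBA, were 0.14 for the brightest, 0.30 for the remaining one and -0.33 for the dimmest, so 2 of the 3 shared a sign. Mb was the other of the 2 genes with probe sets of opposite sign.

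**Figure D2:**
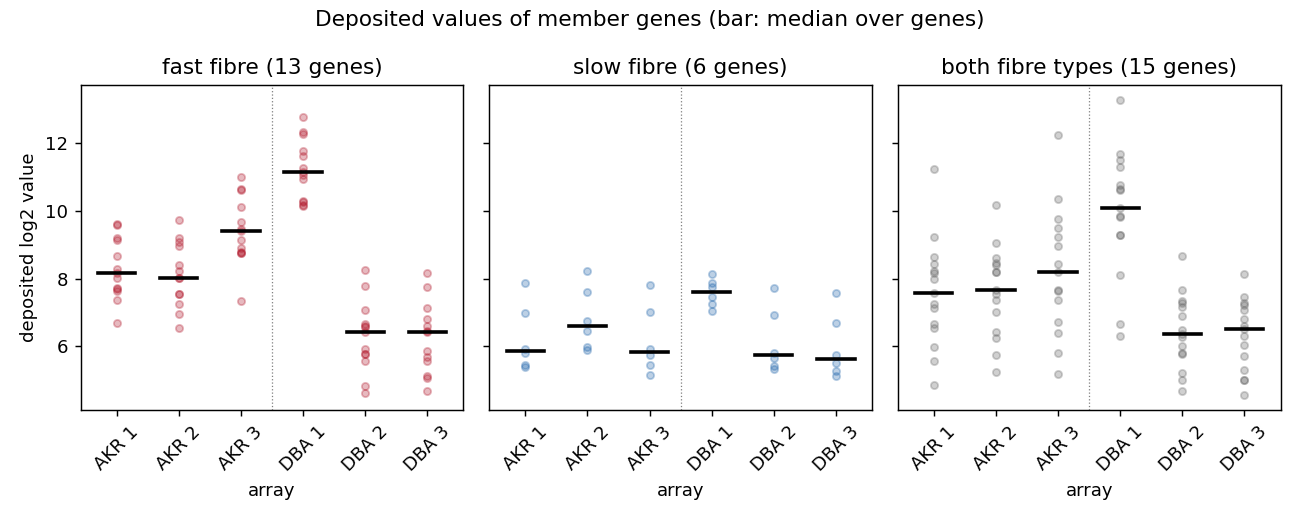
Deposited log2 values of the 13 fast fibre genes, the 6 slow fibre genes and the 15 genes of both fibre types on each array, each point a gene at its brightest probe set and each bar the median over genes. The fast medians are 8.18, 8.03 and 9.41 in AKR and 11.15, 6.42 and 6.42 in DBA tumours, while the slow medians stay between 5.63 and 6.60 except for 7.61 on DBA replicate 1.

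Fast and slow genes were set against each other by array after centring each gene on its own mean. The fast mean minus the slow mean was 0.28, -0.48 and 1.47 log2 units in AKR, against 1.88, -1.63 and -1.51 in DBA tumours. AKR replicate 3 and DBA replicate 1 were thus the 2 arrays where the centred fast mean stood furthest above the centred slow mean. Fast genes had a median range of 5.84 log2 units, against 1.84 for slow genes. The centred difference therefore does not give a ratio of fast to slow transcripts. A gain of at least 1 log2 unit over both DBA replicates 2 and 3 was seen on AKR replicate 3 in 13 of 13 fast genes, 0 of 6 slow genes and 0.524% of all genes. On AKR replicate 1 it was seen in 9 of 13 fast genes, 0 of 6 slow genes and 0.492% of all genes, and on AKR replicate 2 in 12 of 13 fast genes, 1 of 6 slow genes and 4.80% of all genes. On DBA replicate 1 the same count was 13 of 13 fast genes, 4 of 6 slow genes and 1.03% of all genes. Slow genes read low on most arrays, where log2 differences can be compressed. The part of this in the fast minus slow values and in the counts was not tested. No difference between fast and slow genes was tested.

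**Figure D3:**
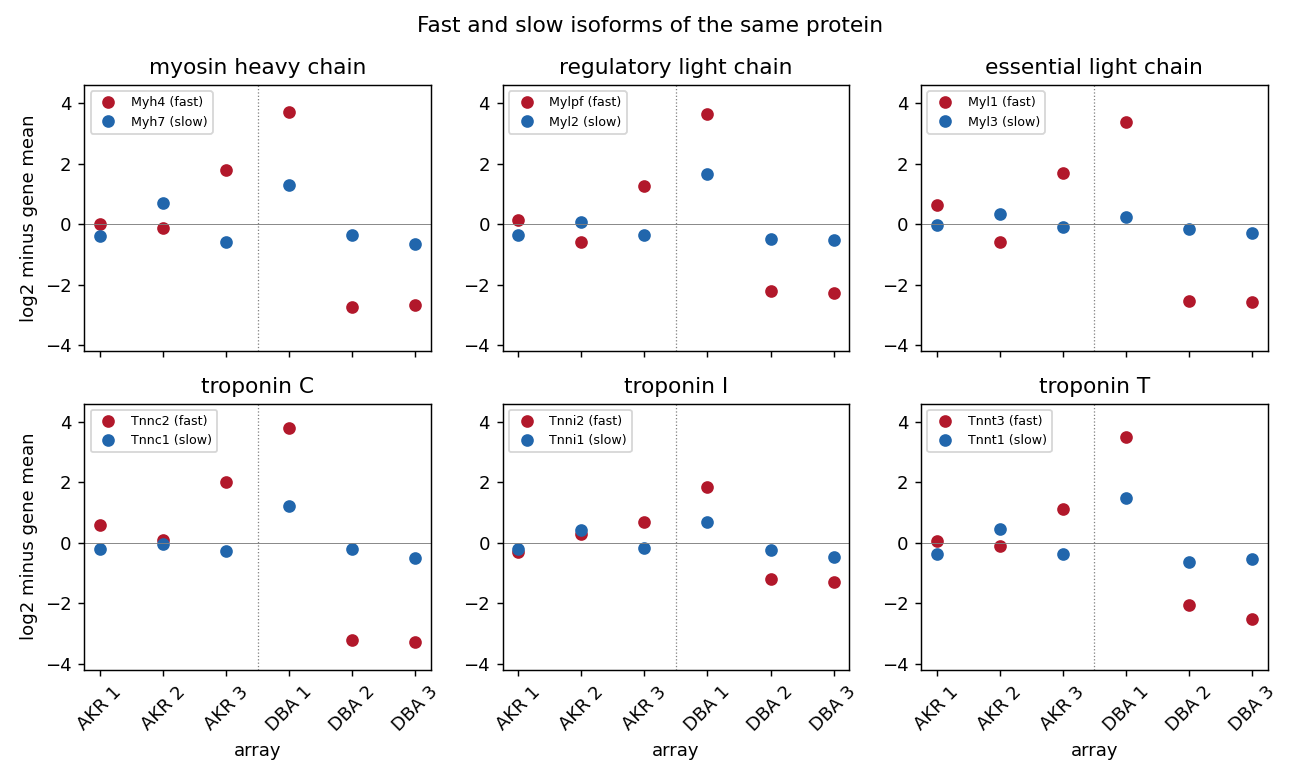
Fast (red) and slow (blue) genes for the same sarcomere protein, as the log2 value minus the gene's mean over the 6 arrays, for myosin heavy chain, both light chains and troponin C, I and T. On AKR replicate 3 each fast gene lies above its slow partner, and on DBA replicates 2 and 3 each fast gene lies below it.

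Among genes of both fibre types, the thin filament gene Acta1 stood out by its size. Acta1, the skeletal muscle actin, read 11.24, 10.17 and 12.24 in AKR, against 13.29, 6.29 and 6.59 in DBA tumours. DBA replicate 1 lay 128-fold above DBA replicate 2 and 104-fold above DBA replicate 3. Ttn, the giant spring that spans the sarcomere, read 8.001, 8.47 and 9.76 in AKR, against 11.31, 5.76 and 6.04 in DBA tumours. Des, the intermediate filament of muscle, read 8.64, 8.41 and 8.95 in AKR, against 9.83, 7.65 and 7.46 in DBA tumours. A dimmer probe set of Des was highest on AKR replicate 2, with 7.04, 7.38 and 6.82 in AKR, against 6.81, 6.90 and 6.54 in DBA tumours. Smooth muscle also makes desmin, so its values need not come from skeletal fibres.

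The Z disc genes Actn2, Myot and Tcap had DBA replicate 1 highest as well. Actn2, which crosslinks actin, read 7.26, 7.54 and 7.38 in AKR, against 9.28, 6.38 and 6.30 in DBA tumours. Tcap, which caps titin, read 8.43, 8.21 and 9.50 in AKR, against 10.76, 7.34 and 7.28 in DBA tumours. In Actn2 the 3 AKR values lay close together, at 7.39 ± 0.14, against 7.32 ± 1.70 in DBA tumours (SD, n = 3 each), so equal means stood over very unequal spreads. Myot, which binds actinin and actin, spanned 4.30 log2 units.

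Energy metabolism genes had DBA replicate 1 highest throughout at the brightest probe set. Ckm, the creatine kinase that regenerates ATP at the myofibril, read 9.25, 9.06 and 10.36 in AKR, against 11.68, 7.18 and 7.07 in DBA tumours. The glycolytic genes Eno3 (muscle enolase) and Pgam2 (muscle phosphoglycerate mutase) and the glycogen phosphorylase gene Pygm spanned 4.28, 3.59 and 3.82 log2 units, each with DBA replicate 1 highest. Ckmt2, the creatine kinase of muscle mitochondria, read 4.87, 5.25 and 5.17 in AKR, against 8.10, 4.67 and 4.56 in DBA tumours. Mb, the oxygen store myoglobin, read 8.18, 8.61 and 8.44 in AKR, against 10.64, 8.67 and 8.13 in DBA tumours. DBA replicate 1 exceeded AKR replicate 3 by 2.93 log2 units in Ckmt2 and by 1.32 in Ckm, with Eno3, Pgam2, Pygm and Mb between 2.21 and 2.41. A dim further probe set of Mb ran only from 6.08 to 6.48. There every AKR value lay above every DBA value, and DBA replicate 1 was not highest (log2 difference 0.25, adjusted p = 0.207 by limma).

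The release channel gene Ryr1 and the voltage sensor gene Cacna1s act in excitation and contraction coupling. Ryr1 read 6.67, 6.43 and 7.65 in AKR, against 9.86, 5.82 and 5.31 in DBA tumours. Cacna1s spanned 1.32 log2 units, with 5.58, 6.24 and 5.81 in AKR, against 6.31, 5.22 and 4.99 in DBA tumours. Mylk2, the skeletal light chain kinase, was highest on AKR replicate 2, with 6.53, 7.02 and 6.41 in AKR, against 6.66, 6.02 and 5.71 in DBA tumours. AKR replicate 2 was the highest array for 32.3% of all genes.

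By limma, 0 of the 44 member probe sets and 0 of the 34 member genes passed an adjusted p of 0.05 between AKR and DBA tumours, where 0.0972% of all probe sets and 0.0565% of all genes did. At an unadjusted p of 0.05 the count was also 0 of 34 genes, against 25.2% of all genes. At the brightest probe set the crosses did not overlap for 0 of 34 members, against 38.4% of all genes. The largest difference was that of Acta1, at 11.22 ± 1.03 in AKR and 8.72 ± 3.96 in DBA tumours (SD, n = 3 each), a log2 difference of 2.49 (SE 1.81, adjusted p = 0.365 by limma). Over all 34 genes the median log2 difference was 0.28, with 22 genes higher in AKR and 12 lower, against a median of 0.05 for all genes. The sign of the median rested on single arrays: leaving out DBA replicate 1 gave 1.24, whereas -0.31 and -0.34 resulted when replicate 2 or replicate 3 of that cross was dropped. Dropping AKR replicate 3 gave 0.07.

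Leaving out DBA replicate 1 changed the calls. All 34 members then lay higher in AKR than in the other 2 DBA tumours, and 5 passed an adjusted p of 0.05, all of them higher in AKR. Over all genes 0.129% were called higher in AKR in that setting, 16 genes in all. The 5 genes were Acta1 (log2 difference 4.78, SE 0.56, adjusted p = 0.024 by limma), Tnnc2 (4.16, adjusted p = 0.0304), Atp2a1 (3.08, adjusted p = 0.0498), Tnnt3 (2.66, adjusted p = 0.0413) and Actn2 (1.06, adjusted p = 0.042). On the linear scale and without DBA replicate 1, Acta1 was 27.4-fold and Tnnc2 17.9-fold higher in AKR tumours. Over all 6 arrays these folds were 5.63 and 3.50, and neither gene was called. DBA replicate 1 was the highest array for 32 of 34 members, and leaving out the highest DBA value can only raise a gene's difference. At an unadjusted p of 0.05, 27 of 34 members were higher in AKR, against 9.02% of all genes, and none of the 6 slow genes was among the 27. The groups did not overlap for 31 members, against 51.6% of all genes. These are the 31 genes already counted above with all 3 AKR arrays above DBA replicates 2 and 3. The median log2 difference was 2.52 for fast genes, 1.11 for genes of both fibre types and 0.34 for slow genes.

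**Figure D4:**
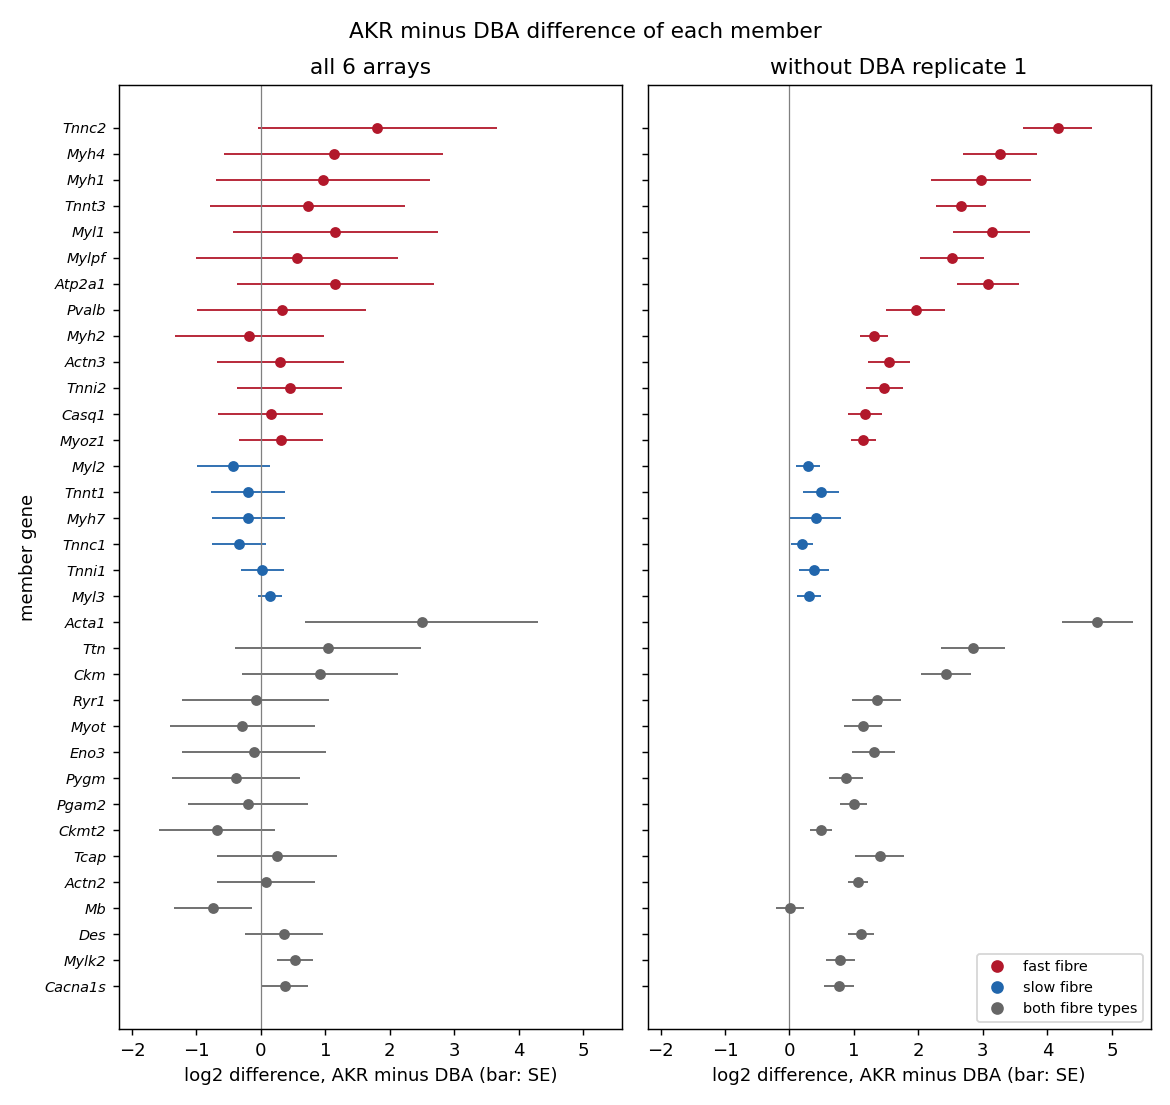
Log2 difference, AKR minus DBA, of each of the 34 muscle genes with its SE from limma, over all 6 arrays (left) and without DBA replicate 1 (right), coloured by fibre type. With all arrays the values scatter around 0 with wide bars, and without DBA replicate 1 all 34 lie above 0, up to 4.78 for Acta1, with the slow genes between 0.19 and 0.49.

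Further muscle genes came from 3 more lists. Of 21 measured further sarcomere and Z disc genes, 0 were called by limma over all arrays and 4 had an unadjusted p under 0.05. The all-gene shares, here and for the lists below, were 0.0565% and 25.2%. The 21 genes had a median log2 difference of -0.17, and DBA replicate 1 was the highest array for 16. Smpx, a small protein of striated muscle, read 5.28, 4.84 and 6.54 in AKR, against 8.49, 4.56 and 4.53 in DBA tumours. Fhl1, a LIM protein that other tissues also make, read 9.09, 7.51 and 9.33 in AKR, against 11.54, 9.91 and 9.70 in DBA tumours. Of 14 further excitation and calcium genes 0 were called (6 unadjusted), with a median of 0.30. DBA replicate 1 was the highest array for 5 of the 14, among them Trdn and Sln, and AKR replicate 2 for 7. Over all genes these shares were 17.1% and 32.3%. The crosses did not overlap for 7 of the 14, against 38.4% of all genes. Trdn, the triadin that anchors calsequestrin, read 6.69, 7.01 and 7.40 in AKR, against 8.45, 6.06 and 6.11 in DBA tumours. Sln, the sarcolipin that restrains the calcium pump, spanned 1.58 log2 units. Of 12 further energy metabolism genes 0 were called (0 unadjusted), with a median of 0.01, and DBA replicate 1 was the highest array for 7. Their widest were Fabp3, the fatty acid carrier of heart and muscle, at 6.38, 6.07 and 5.93 in AKR, against 8.61, 6.01 and 6.35 in DBA tumours, and Cox8b, which spanned 2.47 log2 units.

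Outside the members, the 8 genes whose centred profile lay nearest to the members' mean profile were Myom2, Cmya5, Smpx, Trdn, Myom1, Pde4dip, Mfsd4a and Cox6a2. Their mean absolute distance over the 6 arrays ran from 0.34 to 0.47 log2 units. They were picked as the smallest distances, so they lie below the median of 1.03 for all other genes by selection. The members' own distances had a median of 0.62 and reached 1.41. Myom1 and Myom2 encode proteins of the M band, where thick filaments are tied together, and Cox6a2 the muscle and heart form of a cytochrome oxidase subunit. Myom2 read 5.40, 5.59 and 6.15 in AKR, against 7.97, 5.07 and 4.79 in DBA tumours, with DBA replicate 1 highest, AKR replicate 3 next and DBA replicates 2 and 3 lowest. This measure describes likeness over 6 arrays and carries no test.

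Genes of muscle development and of the heart had smaller ranges over the arrays than the members, with medians of 0.57 and 1.16 log2 units. The median range was 3.65 for the members and 0.70 for all genes. Of 9 measured myogenic regulators and embryonic myosins 0 were called (2 unadjusted, against 25.2% of all genes). On DBA replicate 1, 0 of them reached 1 log2 unit over both other DBA arrays, against 1.03% of all genes. Myod1 and Myog, the factors that commit and differentiate myoblasts, spanned 0.57 log2 units each, and the embryonic myosin Myh3 0.37. Mef2c, also made outside muscle, spanned 2.33 and Myl4, an embryonic and atrial light chain, 1.36. Of 9 heart-restricted genes 0 were called (3 unadjusted), and their array mean was 6.35, 7.07 and 6.25 in AKR, against 6.17, 6.23 and 5.98 in DBA tumours. AKR replicate 2 was highest there, as it was for Myh6 (5.28, 6.72 and 5.08 in AKR, against 5.04, 5.14 and 4.80 in DBA tumours) and Nkx2-5 (8.21, 8.85 and 7.97 in AKR, against 7.65, 7.71 and 7.40 in DBA tumours). That array also read highest of the AKR arrays for every slow fibre gene, and its part in the slow gene values was not tested.

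Adipocyte genes moved with the muscle genes on DBA replicate 1. Of 12 measured adipocyte genes, 9 lay at least 1 log2 unit above both other DBA arrays there, against 1.03% of all genes. Their array mean was 7.71, 7.62 and 7.66 in AKR, against 9.15, 6.63 and 7.24 in DBA tumours. Adipoq, the fat hormone adiponectin, read 7.13, 6.35 and 6.88 in AKR, against 10.57, 5.03 and 6.63 in DBA tumours. Car3, a carbonic anhydrase of both fat and slow muscle, read 9.84, 9.30 and 11.09 in AKR, against 12.29, 5.52 and 8.42 in DBA tumours. Among 5 brown fat genes, DBA replicate 1 was the highest array for 2, Ucp1 and Cidea, against 17.1% of all genes. Ucp1, the uncoupling protein of heat production, read 6.65, 7.76 and 6.58 in AKR, against 9.54, 6.56 and 6.41 in DBA tumours. Cidea spanned 2.13 log2 units. Dio2 and Elovl3 read higher on every AKR array than on any DBA array. Ppargc1a read lower on every AKR array than on any DBA array and was highest on DBA replicate 2. The crosses thus did not overlap for 3 of the 5 brown fat genes, against 38.4% of all genes. By limma 0 of the adipocyte and brown fat genes were called (1 and 2 unadjusted, against 25.2% of all genes). Their part in the muscle values was not tested.

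Smooth muscle and myoepithelial genes had a different order of arrays. Their mean over 12 measured genes was 7.81, 8.06 and 7.66 in AKR, against 7.76, 8.91 and 8.88 in DBA tumours, so the list mean was highest on the DBA arrays with the least skeletal muscle signal. The genes did not share 1 order, and 5 of the 12 had the higher mean in AKR tumours. Acta2, the smooth muscle actin, read 10.09, 9.77 and 9.72 in AKR, against 10.37, 13.26 and 12.13 in DBA tumours. Actg2, the other smooth muscle actin, read 6.17, 5.90 and 5.87 in AKR, against 6.22, 9.42 and 8.29 in DBA tumours. The basal keratin Krt14 read 9.76, 9.80 and 9.55 in AKR, against 9.33, 7.43 and 10.21 in DBA tumours, so it was lowest on DBA replicate 2. Krt5, its partner, was lowest there too. Over all arrays 0 of the 12 were called by limma (4 unadjusted, against 25.2% of all genes). Without DBA replicate 1, 5 of 12 were called lower in AKR tumours, against 1.03% of all genes. Tpm2, a tropomyosin of slow skeletal and smooth muscle, was called lower too in that setting (-1.94, adjusted p = 0.0348 by limma) and was the 1 call among the further sarcomere genes.

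Luminal epithelial markers read high on every array as a list. The mean of 12 of them was 10.98, 10.68 and 11.04 in AKR, against 10.95, 10.80 and 11.06 in DBA tumours, so the mean on DBA replicate 1, the array with the most muscle signal, lay within the range of the other arrays. The single markers varied more, with a median range of 1.03 log2 units against 0.70 for all genes. Epcam, an adhesion protein of epithelia, spanned 0.39 log2 units, and the keratins Krt8 and Krt18 spanned 0.62 and 0.46. Muc1, an apical mucin, and Foxa1, a luminal transcription factor, spanned more, at 1.60 and 1.65, as did Cldn3, a tight junction claudin, at 1.47, and the keratin Krt19 at 1.38. Without DBA replicate 1, Cldn3 was called higher in AKR tumours (1.18, adjusted p = 0.0413 by limma). Skin genes such as Krt10 and Lor spanned 1.29 and 1.08, and the nerve sheath genes S100b and Pmp22 1.76 and 1.60. By limma 0 luminal, skin and nerve genes were called over all arrays. At an unadjusted p of 0.05 the counts were 2 of 12, 0 of 6 and 2 of 4, against 25.2% of all genes.

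**Figure D5:**
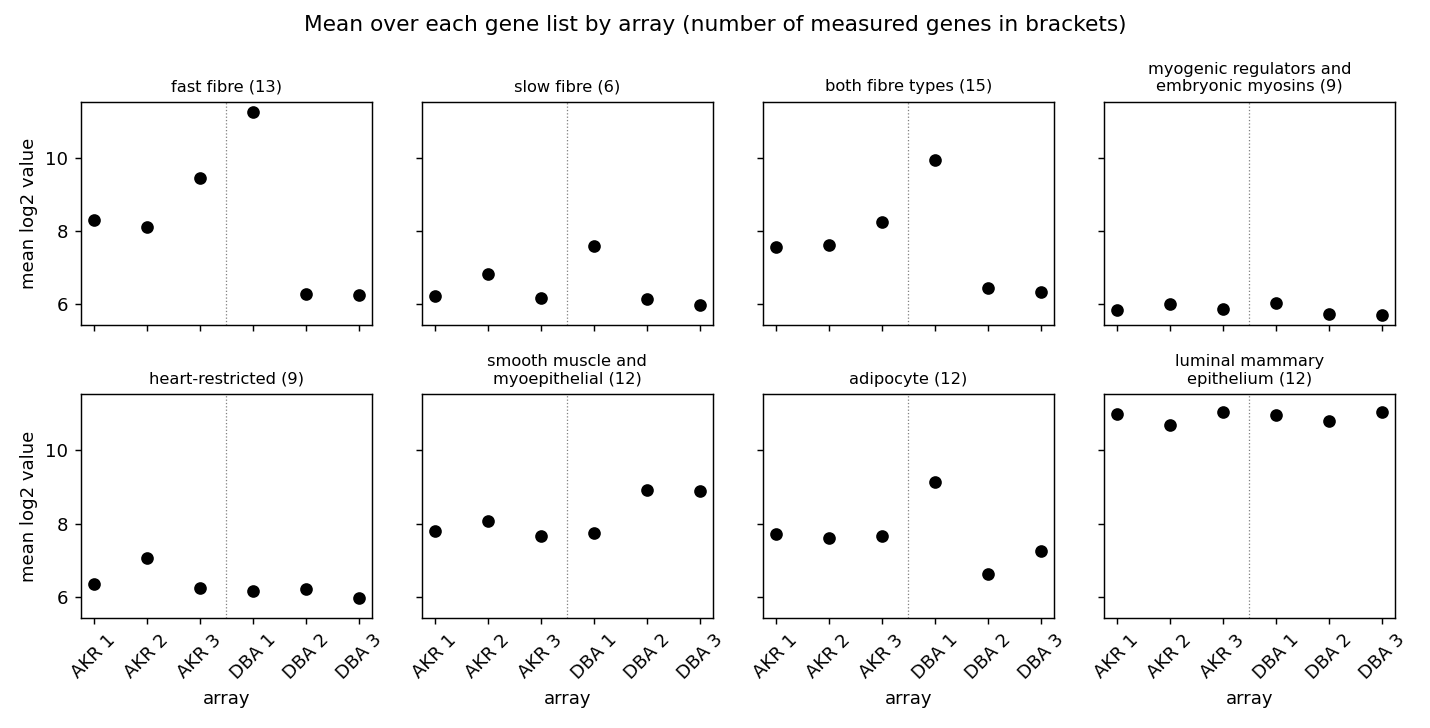
Mean log2 value over each gene list on each array, for the muscle genes by fibre type and for 5 other lists, with the number of measured genes in brackets. Fast, both-type and adipocyte lists peak on DBA replicate 1, smooth muscle genes read highest on DBA replicates 2 and 3, and luminal epithelial markers stay between 10.68 and 11.06.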

How the data were processed

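Gene expression was measured in 3 AKR and 3 DBA tumour samples, 1 array each. Groups came from the source names, and replicate numbers only name samples. The deposited table holds log2 values of the authors, from 3.65 to 14.73. Per the submitters' processing notes the tools were MAS5 and RMA, and which of them made these values is not stated. Detection calls were not used here, so a low value may lie at background, where true differences look smaller.

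Of 22690 rows, 64 control probe sets were left out. Of the 22626 others, 20380 had 1 gene symbol in the platform annotation, 691 several and 1555 none. Probe sets with 1 symbol were named. For AKR minus DBA differences, limma's moderated test was used (version 3.58.1, R 4.3.3, two-sided, p-values adjusted across every non-control probe set by Benjamini-Hochberg), a procedure also run on simulated data. List values are counts, medians and means without tests. Alternatives were quantile normalization, median centring, a brightness filter, means over a gene's probe sets, a trended robust prior, array weights, adjusted p 0.10 and leaving out each array. Figures were drawn with matplotlib 3.10.9.

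The members and lists were chosen with earlier results of these data known. All members were named, with the 2 widest-ranging genes of each other list, any called there, and the 8 nearest profiles. Genes outside this rule (Myod1, Myog, Myh3, Dio2, Elovl3, Ppargc1a, Epcam, Krt8, Krt18, Krt19, Cldn3, Krt14, Krt5, Tpm2) were chosen after their values were seen. RefSeq promoters came from a table of 250 bases before and 50 after each start, of which the bases before were used.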

Additional observations from a re-analysis of the deposited data

How the results depend on the processing

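The count of 0 member probe sets and 0 member genes called held under quantile normalization, median centring, the brightness filter, the trended and robust prior, array weights and an adjusted p of 0.10, and the count of genes also held with means over a gene's probe sets. Leaving out 1 array in turn gave 0 to 5 called, for probe sets and for genes. The 5 came without DBA replicate 1. Over all probe sets the 22 calls became 36 with quantile normalization, 102 among probe sets brighter than the median, 3712 with array weights and 810 at an adjusted p of 0.10, and ran from 1 to 263 when 1 array was left out. The gene-by-gene method gave the array weights, since the default method did not converge. AKR replicate 2 had the lowest weight, at 0.192, against 0.683 to 2.805 on the other arrays. The median within-cross SD of members ran from 0.41 to 1.75 when 1 array was left out. The median difference of members ran from -0.34 to 1.24, that of fast genes from -0.11 to 2.52, that of genes of both types from -0.44 to 1.11 and that of slow genes from -0.54 to 0.34, so each changed sign with single arrays. The brightness filter kept 20 of 34 members and 1 of 6 slow genes. No paired analysis was possible because the replicate numbers were given in accession order. Signal over background could not be judged without detection calls, which limits the slow genes most.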
